A study of Mus musculus with 69 samples.

Results

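Pou5f1 (which encodes Oct4), Nanog, Sox2, Sall4, Utf1, Fgf4, Dppa4, Dppa5a, Zfp42 (Rex1) and Tdgf1 (Cripto) were followed in mouse embryonic stem cells (ESCs) whose histone H3.3 can no longer be acetylated at lysine 27. The 10 genes were chosen by name, as core pluripotency factors and partners or targets of Oct4, from the 16263 genes of the count table, and all 10 passed the filter on low counts that left 14061 genes for testing. With them went every ATAC-seq peak that lay within 20 kb of one of the genes in any of 6 peak lists, which merged into 63 of 89596 regions. The groups were wild-type (WT) J1 cells, an ESC line of the 129S4/SvJae background derived from the inner cell mass of the blastocyst, and the H3.3K27R lines Mut18 and Mut43, made from J1 by Cas9 editing of both alleles of H3f3a and H3f3b so that H3.3 carries arginine in place of lysine 27. Each mutant line is 1 clone, so a clone's own history and the mutation cannot be told apart within it. All lines had been grown on feeder cells and were passaged without feeders before harvest. There were 2 mRNA-seq and 2 ATAC-seq libraries of each line, and p-values measure the spread between these libraries.

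Oct4 and Sox2 bind DNA as a pair on a joint site made of a Sox element and an octamer element, and with Nanog and Sall4 they occupy the enhancers of one another and of most genes that define the undifferentiated ESC. Utf1 and Fgf4 are classical targets of the Oct4-Sox2 pair. Dppa4, Dppa5a, Zfp42 and Tdgf1 are markers of undifferentiated cells, and Zfp42 is known to vary from cell to cell with the naive state.

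Regions that hold a joint Sox-Oct motif are printed first, because this is the site that the Oct4-Sox2 pair is known to read. The motif searched was TTGTNATGC, and the octamer alone was ATGCNAAT, each on both strands and in the 300 bases about the summit of a region. The motifs share the letters ATGC, so one can run into the other. Among the regions with a peak in all 6 libraries, 3 near the 10 genes held the joint motif. Sequences are of GRCm38.p6 (RefSeq), the build of the peak lists, and run along the strand of the gene. Capitals mark the match, which in these 3 lay on the opposite strand and is therefore read as its reverse complement, and annotated transcript ends that fell into a window were trimmed off.
Pou5f1, upstream region with its summit at -1985 bp, chr17:35503883-35504182, + strand: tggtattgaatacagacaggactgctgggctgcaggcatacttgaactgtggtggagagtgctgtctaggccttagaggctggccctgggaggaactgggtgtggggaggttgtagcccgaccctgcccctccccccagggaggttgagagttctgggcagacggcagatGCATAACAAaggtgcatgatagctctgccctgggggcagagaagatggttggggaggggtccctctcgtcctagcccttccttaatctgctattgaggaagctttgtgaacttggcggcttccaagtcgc
Nanog, promoter region with its summit at -2 bp, chr6:122707337-122707488, + strand: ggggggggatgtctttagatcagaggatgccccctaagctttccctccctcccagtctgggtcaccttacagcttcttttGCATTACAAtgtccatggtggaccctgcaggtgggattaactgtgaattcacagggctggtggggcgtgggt
Utf1, downstream region with its summit at 1938 bp, chr7:139945577-139945876, + strand: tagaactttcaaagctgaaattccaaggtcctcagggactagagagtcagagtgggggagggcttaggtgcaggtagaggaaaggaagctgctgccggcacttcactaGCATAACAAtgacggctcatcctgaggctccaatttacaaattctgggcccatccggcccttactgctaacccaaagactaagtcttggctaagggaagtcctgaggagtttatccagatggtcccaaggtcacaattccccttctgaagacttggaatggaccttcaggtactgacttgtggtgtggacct
The Pou5f1 and Utf1 matches used the same 9 letters, TTGTTATGC, at 20 and -42 bp from the summit, and that of Nanog read TTGTAATGC at -70 bp. Distances here run from the annotated 5′ end of the gene, with negative values upstream, and matches are placed along the chromosome from the summit.

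A joint motif also lay in 2 regions that were missing from some lists. One was a region downstream of Sox2, with a peak in both Mut43 libraries and in no other. The other was at the promoter of Dppa4, with a peak in the first WT library only.
Sox2, region with its summit at 3606 bp, chr3:34654021-34654089, + strand: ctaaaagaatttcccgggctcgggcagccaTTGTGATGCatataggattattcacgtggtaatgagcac
Dppa4, promoter region with its summit at -15 bp, chr16:48283629-48283697, + strand: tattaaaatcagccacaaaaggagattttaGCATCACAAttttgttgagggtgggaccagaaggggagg
In all, 5 of 63 windows near the 10 genes held the joint motif (7.94%), against 1.69% of all 89596 regions, and no test was made of this difference, since the genes were chosen as Oct4 partners. The octamer was found in 3 of 63 windows (4.76%) against 5.3% of all regions. These 3 were in an intron of Sall4, at the promoter of Zfp42 and downstream of Dppa5a, and the first 2 are shown because their regions had a peak in every library.
Sall4, region with its summit at 670 bp, chr2:168767295-168767362, - strand: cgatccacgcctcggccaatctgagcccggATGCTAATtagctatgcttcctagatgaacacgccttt
Zfp42, promoter region with its summit at -105 bp, chr8:43307158-43307225, - strand: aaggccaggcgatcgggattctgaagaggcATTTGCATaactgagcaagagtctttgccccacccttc
In RefSeq's promoter windows the joint motif was present in 2 of 9 entries, both of them starts of Nanog that contain the same site, against 0.731% of 32851 promoters, and the octamer in 1 of 9, that of Zfp42, against 3.15%. The 9 entries belong to Pou5f1, Nanog, Sox2, Utf1, Fgf4, Zfp42 and Tdgf1. Sall4, Dppa4 and Dppa5a had no entry. A match is a run of letters and not a measured binding site.

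The 6 mRNA-seq libraries were of nearly equal depth, with totals from 14992756 to 15143998 counts and scaling (TMM) factors from 0.985 to 1.02. Replicates were further apart than counting error allows (chi-square per gene 3.36 in WT, 2.11 in Mut18 and 1.84 in Mut43). All 10 genes were strongly expressed, as the label of the cells as ESCs implies, and their levels per kilobase of exon, scaled by library size (RPKM) placed each above at least 89.5% of the 13516 genes with a known exon length. In WT, Dppa5a was highest at 723.6 RPKM, followed by Pou5f1 (367.9), Tdgf1 (336.3), Zfp42 (280.03), Sox2 (200.2), Utf1 (184.0), Nanog (136.3), Dppa4 (76.5), Sall4 (48.9) and Fgf4 (34.4). In this order each gene was below its neighbour in both WT libraries, although Sox2 (195.5 to 205.0) and Utf1 (173.2 to 194.8) were nearly in contact. Zfp42 moved from the fourth place in WT to the second in both mutants, with 437.9 RPKM in Mut18 and 483.8 in Mut43, while Pou5f1 moved from the second to the fourth, with 304.6 and 303.5. Utf1 and Nanog overlapped in both mutant lines. Dppa5a, Nanog, Zfp42 and Tdgf1 have annotated pseudogenes, and reads shared with these could be divided otherwise by another counting program.

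**Figure D1:**
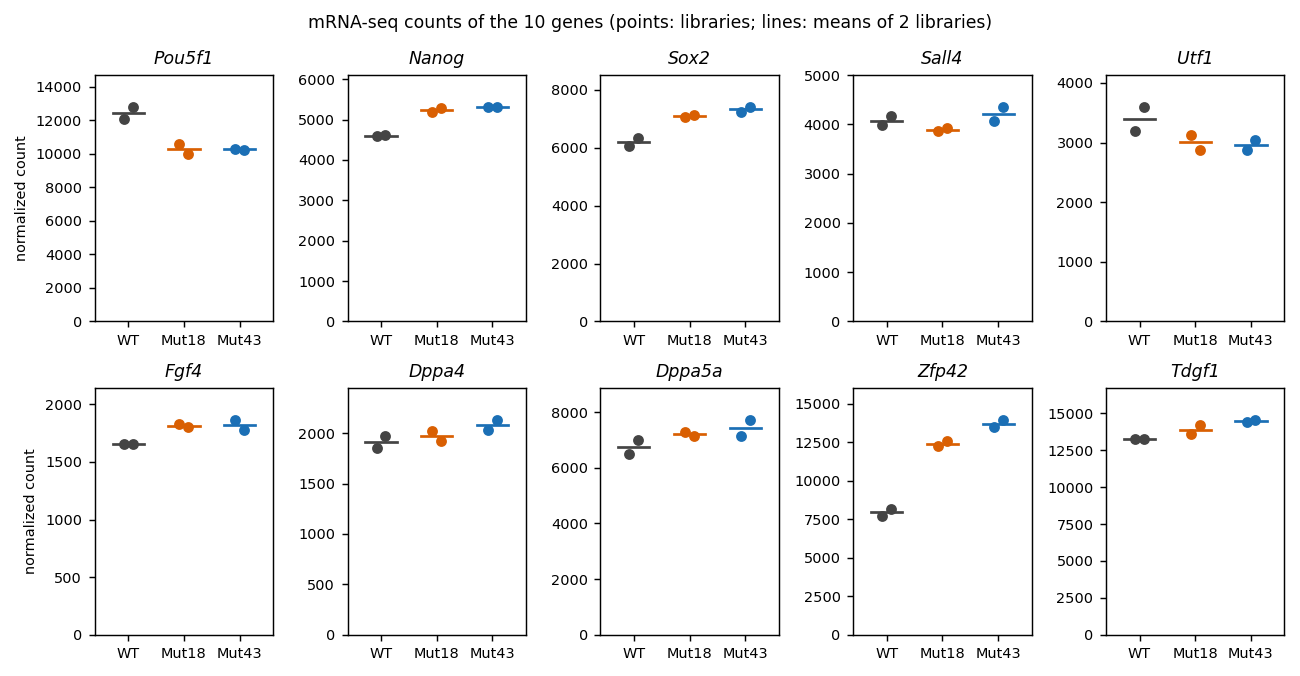
Normalized mRNA-seq counts (linear axes from 0) of the 10 genes in WT, Mut18 and Mut43, where points are libraries and lines are means of 2 libraries. Pou5f1 and Utf1 were lower in all 4 mutant libraries than in both WT libraries, Zfp42 was clearly higher, and the libraries of Sall4 and Dppa4 overlapped.

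Of the 10 genes, 6 were higher and 2 lower in the mutants, and Zfp42 was the one with a large change. Counts were compared by edgeR's quasi-likelihood test, WT (n = 2) against both clones (n = 4), and a gene was called at an adjusted p (Benjamini-Hochberg over 14061 genes) under 0.05. Nanog, Sox2, Fgf4, Dppa5a, Zfp42 and Tdgf1 were called higher, Pou5f1 and Utf1 lower, and Sall4 and Dppa4 were not called. Over all tested genes 48.0% were called, 23.5% higher and 24.5% lower, so a call in itself was common in these libraries. None of the 10 changed by over 2-fold, against 8.93% of all tested genes. The median log2 fold change of the 10 was 0.11 beside -0.00 for all genes, and their median change in size was 0.16 beside 0.23. The 4 mutant and 2 WT libraries did not overlap for 8 of the 10 genes, against 59.8% of all tested genes.

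Among the core factors, Pou5f1 fell and its partners Sox2 and Nanog rose. Pou5f1 (chromosome 17, 35506018 to 35510772, plus strand), the gene of the POU-domain factor Oct4, had normalized counts of 12092 and 12814 (WT), 10618 and 10007 (Mut18), 10288 and 10258 (Mut43). All 4 mutant libraries were below both WT libraries, and the clones were alike. The log2 fold change was -0.27 (SE 0.037, 95% confidence interval -0.35 to -0.20, adjusted p = 4.22e-06, edgeR), so that the level fell by 17.3%. An antisense transcript, Gm19553, overlaps Pou5f1, and since the strand setting of the counting is not given in the sources used here, reads of the pair cannot be told apart.

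Sox2 (chromosome 3, 34650405 to 34652461, plus strand), the HMG-box partner of Oct4, had normalized counts of 6055 and 6350.2 (WT), 7061 and 7141 (Mut18), 7238 and 7416 (Mut43). It was higher in every mutant library, with a log2 fold change of 0.22 (SE 0.038, adjusted p = 8.88e-05, edgeR). Sox2 lies inside the long transcript Sox2ot on the same strand, whose reads could be counted with it.

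Nanog (chromosome 6, 122707489 to 122714633, plus strand), a homeodomain factor that sustains self-renewal, had normalized counts of 4583 and 4618 (WT), 5200.5 and 5298 (Mut18), 5303 and 5318 (Mut43). The mutants were again above WT throughout. The log2 fold change was 0.20 (SE 0.037, adjusted p = 0.000165, edgeR).

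Sall4 (chromosome 2, 168748332 to 168767943, minus strand), a zinc-finger factor found in complexes with Oct4, differed from these. It had normalized counts of 3982 and 4166 (WT), 3857 and 3915 (Mut18), 4068 and 4356 (Mut43), so that both WT libraries were above those of Mut18 and overlapped with those of Mut43. On the log2 scale the difference was -0.01 (95% interval -0.11 to 0.09, adjusted p = 0.890, edgeR), which leaves room for a change of up to about that size in either direction. A transcript on the opposite strand, Gm14261, overlaps Sall4, and reads of this pair cannot be told apart either.

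The Oct4-Sox2 targets moved in opposite directions. Utf1 (chromosome 7, 139943789 to 139945112, plus strand), a chromatin-associated factor of undifferentiated cells, had normalized counts of 3199.6 and 3599.97 (WT), 3133 and 2882 (Mut18), 2876 and 3041 (Mut43). The first WT library was barely above the highest mutant library. The log2 fold change was -0.19 (SE 0.049, adjusted p = 0.00319, edgeR), and without the second WT library it was -0.09 (adjusted p = 0.205) and no longer called, while adjusted p ranged from 0.000374 to 0.205 over its 14 alternatives. Fgf4 (chromosome 7, 144847367 to 144865243, plus strand), the growth factor through which ESCs start to differentiate, had normalized counts of 1658 and 1651.5 (WT), 1829 and 1802 (Mut18), 1863 and 1778 (Mut43), all mutant libraries being higher. Its log2 fold change was 0.14 (SE 0.042, adjusted p = 0.0113, edgeR), and without the first or the second WT library adjusted p was 0.0643 or 0.0636, with a range over its 14 alternatives from 0.00344 to 0.0643.

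Among the markers, Zfp42 rose far more than the others. Zfp42 (chromosome 8, 43295063 to 43306980, minus strand), a zinc-finger gene used as a reporter of naive ESCs, had normalized counts of 7710.4 and 8154 (WT), 12262 and 12546 (Mut18), 13478 and 13929.8 (Mut43). The lowest mutant library was far above the highest WT library, and Mut43 was above Mut18 in both libraries. The change was 1.65-fold (log2 0.72, SE 0.048, 95% confidence interval 0.62 to 0.82, adjusted p = 2.02e-10, edgeR), and Zfp42 stood at rank 145 of 14061 genes by p. In every one of 14 alternative settings its log2 fold change was between 0.68 and 0.77 and it was called.

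The other 3 markers changed little or not detectably. Dppa5a (chromosome 9, 78367052 to 78368177, minus strand), an RNA-binding protein gene, had normalized counts of 6504 and 6986 (WT), 7302 and 7145 (Mut18), 7157 and 7718 (Mut43), a log2 fold change of 0.12 (adjusted p = 0.0233, edgeR). Tdgf1 (chromosome 9, 110939603 to 110946158, minus strand), the Nodal co-receptor, had 13259 and 13299 (WT), 13596 and 14209 (Mut18), 14397 and 14551 (Mut43), a log2 fold change of 0.10 (adjusted p = 0.0373, edgeR). The call of Dppa5a was lost without the first WT library (adjusted p = 0.302), without the second Mut43 library (0.0761) and with upper-quartile scaling (0.0537), and its alternatives ranged from 0.00752 to 0.302. That of Tdgf1 was lost in 7 of 14 alternatives, without either WT library (adjusted p = 0.128 and 0.0917), without the second Mut18 library (0.0755) or either Mut43 library (0.0685 and 0.0999) and in 2 other settings, with a range from 0.00732 to 0.128. Dppa4 (chromosome 16, 48283733 to 48294237, plus strand), a nuclear protein gene that works with its neighbour Dppa2, had normalized counts of 1856 and 1975 (WT), 2019 and 1927 (Mut18), 2027 and 2130.02 (Mut43), and its groups overlapped (log2 0.08, 95% confidence interval -0.02 to 0.18, adjusted p = 0.163, edgeR).

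**Figure D2:**
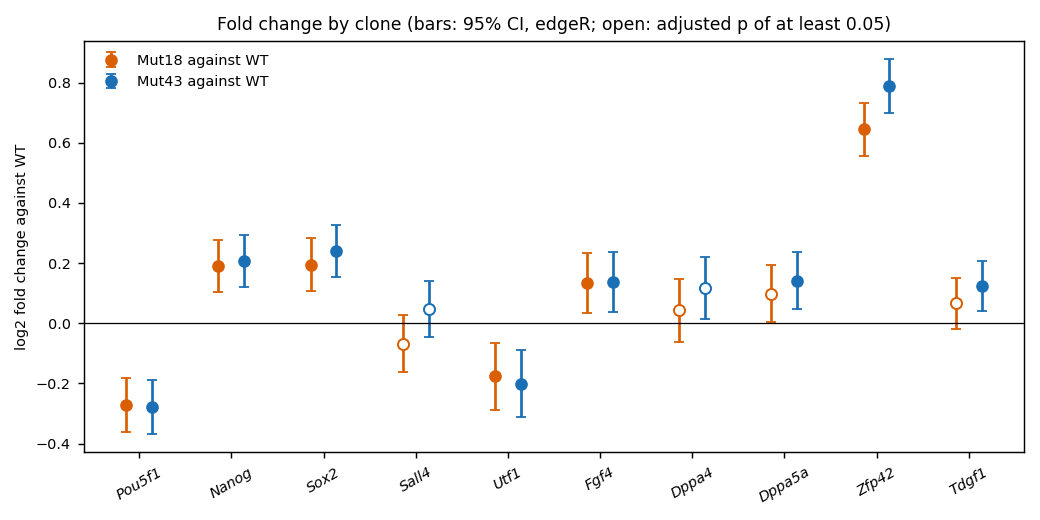
Log2 fold change against WT of the 10 genes in Mut18 (n = 2) and Mut43 (n = 2), with 95% confidence intervals from edgeR's 3-group fit, where open points did not reach an adjusted p under 0.05. Zfp42 stands at 0.65 in Mut18 and 0.79 in Mut43, Pou5f1 at -0.27 and -0.28, and both clones share the 2 WT libraries.

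Each clone was next set against WT on its own, with the 2 WT libraries used in both. In Mut18, 6 of the 10 genes were called, where 41.3% of all tested genes were, with Nanog, Sox2, Fgf4 and Zfp42 higher (20.3% of all were) and Pou5f1 and Utf1 lower (21.0%). In Mut43, 8 were called, where 46.8% of all were, with Dppa5a and Tdgf1 higher in addition, making 6 higher (22.9% of all) and 2 lower (23.9%). Zfp42 had a log2 fold change of 0.65 (SE 0.043) in Mut18 and 0.79 (SE 0.043) in Mut43, Sox2 of 0.20 and 0.24, and Nanog of 0.19 and 0.21. Pou5f1 stood at -0.27 and -0.28 and Utf1 at -0.18 and -0.20. The calls of Fgf4 were lost in 5 of 13 alternatives in each clone (adjusted p up to 0.116 in Mut18 and 0.161 in Mut43, DESeq2 among them), those of Utf1 without the second WT library (0.303 and 0.168), without the second Mut18 library (0.186 in Mut18) and without the first Mut43 library (0.0947 in Mut43). In Mut43, the call of Dppa5a was lost without the first WT library (0.178) or the second Mut43 library (0.256), and that of Tdgf1 without either Mut43 library (0.0569 and 0.102). A call in one clone and not in the other does not show that the clones differ, which the direct comparison tests.

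Between Mut43 and Mut18 none of the 10 genes was called by edgeR, where 0.327% of all tested genes were (46 genes). At an unadjusted p under 0.05 there were 2 of the 10, where 8.52% of all tested genes passed in either direction. Both were higher in Mut43, and DESeq2 called 0 of the 10. Zfp42 was 1.10-fold higher in Mut43 (log2 0.14, 95% confidence interval 0.06 to 0.23, adjusted p = 0.204, edgeR). Sall4 was 1.08-fold higher (log2 0.12, interval 0.02 to 0.21, adjusted p = 0.429). For Pou5f1 the difference was -0.01 (interval -0.10 to 0.08) and for Nanog 0.02 (-0.07 to 0.10), and a missing call does not show that the clones were equal.

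**Figure D3:**
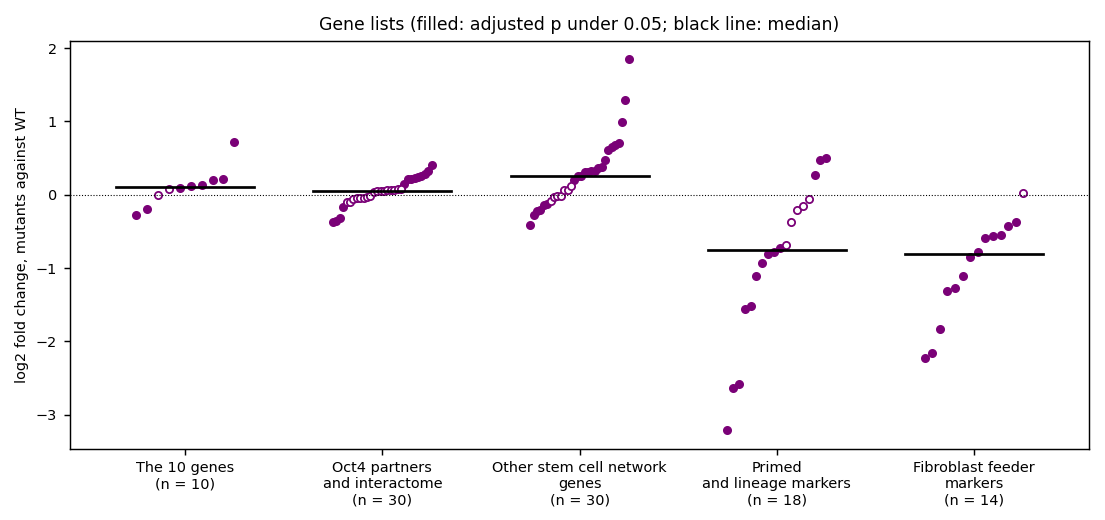
Log2 fold change of the mutants (n = 4) against WT (n = 2) for the 10 genes and 4 lists of other genes, where filled points passed an adjusted p under 0.05 and the black lines are medians. The medians were 0.11 for the 10 genes, 0.05 for Oct4 partners, 0.26 for other network genes, -0.75 for primed and lineage markers and -0.81 for fibroblast feeder markers.

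The genes around the 10 were read by list. Of 30 other Oct4 partners and members of its protein network, 9 were higher, 4 lower and 17 not called, a share of 43.3% called beside 48.0% of all genes. The largest changes were those of Esrrb, an orphan nuclear receptor of the naive network (log2 0.41, adjusted p = 3.68e-08), and Parp1, the poly(ADP-ribose) polymerase (0.32, adjusted p = 1.38e-06), both higher, and of Arid3b (-0.37, adjusted p = 9.22e-06) and the NuRD subunit Mta2 (-0.36, adjusted p = 2.13e-07), both lower (edgeR). None of these 30 changed by over 2-fold.

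Of 30 other genes of the stem cell network, 17 were higher, 6 lower and 7 not called, a share of 76.7% called beside 48.0% of all genes (23.5% higher and 24.5% lower). Dppa3 (Stella), an oocyte and germ cell factor, averaged 242.6 ± 15.9 normalized counts in the WT libraries (SD, n = 2) and 872.8 ± 51.8 in those of the mutants (SD, n = 4), which is 1.85 on the log2 scale (adjusted p = 2.38e-13, edgeR). Prdm14, a repressor that keeps ESCs naive, averaged 147.2 ± 14.9 in WT and 360.5 ± 10.8 in the mutants, a log2 fold change of 1.29 (adjusted p = 4.11e-10, edgeR). The largest falls were those of Gbx2 (-0.41, adjusted p = 1.63e-05, edgeR) and Lin28a, which blocks let-7 maturation (-0.27, adjusted p = 1.68e-06, edgeR). Dppa2, the neighbour and partner of Dppa4, stood at 0.20 (adjusted p = 0.000772, edgeR) and was named after its value had been seen.

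Of 20 primed and lineage markers, 18 could be tested, and 3 were higher, 10 lower and 5 not called, a share of 72.2% called beside the same background. T (Brachyury), of the primitive streak, stood at -2.63 (adjusted p = 2.93e-11) and Fgf5, of the primed epiblast, at -2.58 (adjusted p = 7.96e-13), while Gata4 and Tfap2c were higher at 0.50 (adjusted p = 0.0347) and 0.48 (adjusted p = 2.98e-05, edgeR). The call of Gata4 was lost without the first or second WT library (adjusted p = 0.0560 and 0.213) and without the first or second Mut43 library (0.0611 and 0.0831). Of the 15 fibroblast feeder markers, 13 of 14 tested were lower (92.9%, beside 24.5% of all genes) and none higher, Thy1 was not called and Lum could not be tested. With DESeq2 9 of this list were called, where 5331 of 16263 genes were. The called genes named by size were Postn (log2 -2.22, adjusted p = 4.39e-07) and Col3a1 (-2.16, adjusted p = 1.99e-06, edgeR), and for both the WT libraries were far apart, with normalized counts of 288.03 and 110.8 for Postn and 842.6 and 256.8 for Col3a1. Without the first WT library Postn stood at -1.37 (adjusted p = 3.23e-06) and Col3a1 at -1.06 (adjusted p = 1.26e-06, edgeR). No marker of the list was at 0 in all libraries. The summed level of the list was 760.3 and 655.2 (WT), 525.2 and 478.3 (Mut18), 381.3 and 356.3 (Mut43) in CPM, counts scaled by library size, so the list moved with the contrast of WT and mutants, and its part in the changes of the 10 genes was not tested. In bulk RNA, fewer cells of a type and less RNA per cell cannot be told apart.

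By Pearson's r of log2 normalized counts over the 6 libraries, among 11075 genes with a mean of at least 50, Pou5f1 was most like Casp8, Ttc21b and Carhsp1 (r of 0.998 to 0.999), all lower in the mutants, with 92.0 counts in WT and 55.1 in the mutants for Casp8. Among the genes most like Nanog were Bcas3 and Npm1 (r of 0.999), both higher, with 95542 in WT and 129447 in the mutants for Npm1, which encodes nucleophosmin. With 6 libraries in 2 clusters such values mainly restate the contrast, and they carry no p.

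ATAC-seq, in which a transposase cuts open chromatin, was read from the peaks of each library with the fold enrichment of each peak over the peak caller's background. This background can be local, so that a strong peak inside a broad open domain can have a modest value, and values are compared for 1 region across libraries only. Near the 10 genes 43 of 63 regions had a peak in all 6 libraries (68.3%, exact 95% binomial interval 55.3 to 79.4), against 54.7% of all regions, and neighbouring regions are not independent. All 5 regions of Zfp42 and 6 of 7 of Tdgf1 were present throughout. So were 6 of 8 of Pou5f1, 5 of 6 of Dppa5a, 4 of 5 of Fgf4, 4 of 6 of Utf1, 3 of 5 of Nanog, 4 of 9 of Sall4, 4 of 9 of Sox2 and 2 of 3 of Dppa4. The lists held from 63588 peaks in the first Mut18 library to 78536 in the first WT library, and the 4 regions seen in 1 library alone all came from that longest list.

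**Figure D4:**
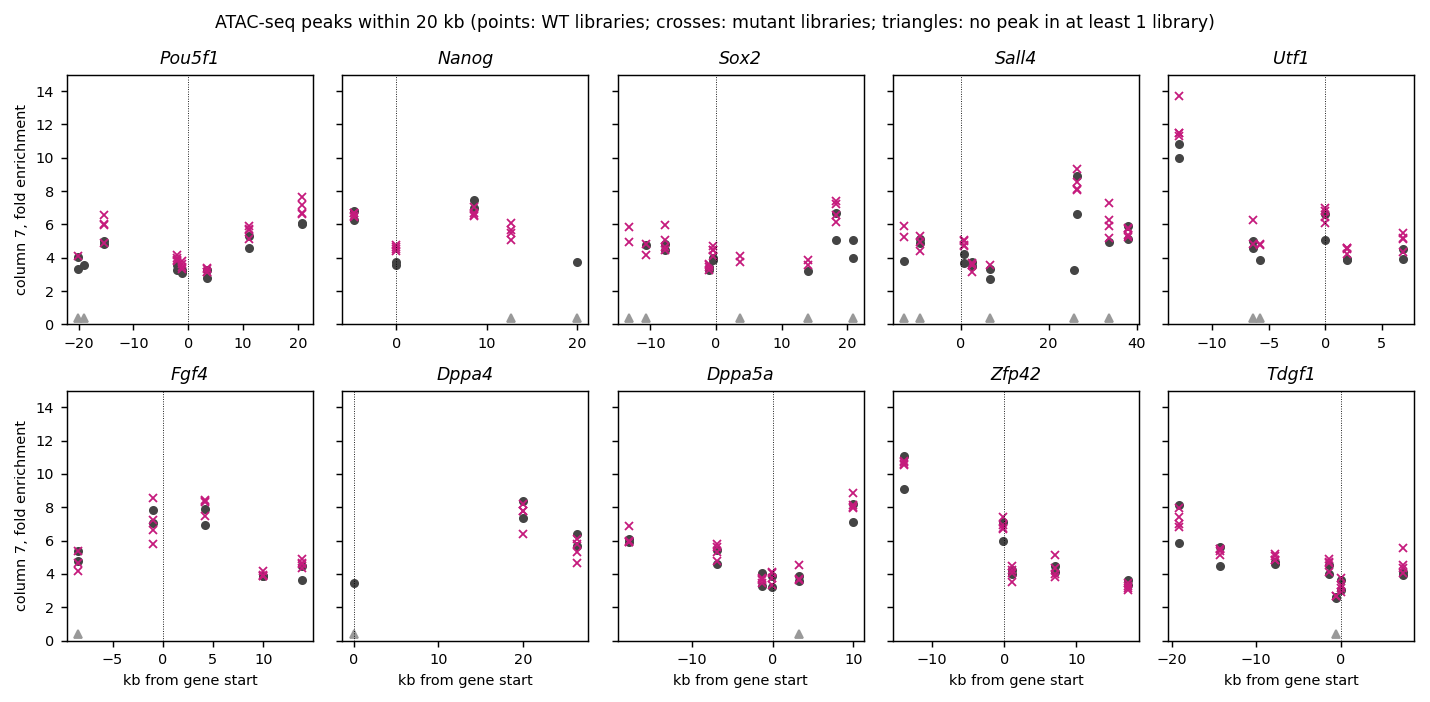
Fold enrichment of ATAC-seq peaks within 20 kb of each gene against the distance of the summit from the gene's 5′ end in kb, where points are the WT libraries, crosses the mutant libraries, and triangles mark regions without a peak in at least 1 library. The highest listed values belong to the regions -12899 bp from Utf1 and -13843 bp from Zfp42, which is no ranking of their openness, and at most positions points and crosses cover the same range.

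A region was present in WT alone or in the mutants alone at 1 place each. Downstream of Sox2, inside Sox2ot, chr3:34671138-34671288 had peaks of 4.00 and 5.04 in WT and none in the 4 mutant libraries. Downstream of Nanog, chr6:122720023-122720320 had peaks of 5.50, 6.09, 5.07 and 5.65 in the mutants and none in WT. Over all regions 3.25% were in WT alone and 0.733% in the mutants alone, so 1 of 63 of each kind (1.59%) is a count too small to be set apart from them. The lists hold only values above the caller's threshold, and a missing peak is not a measured 0.

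Distal regions near Utf1 and Zfp42 had the highest values in the lists, which does not rank them against other regions, since the background can be local. In an intron of Kndc1, -12899 bp from Utf1, the fold enrichment was 10.0 and 10.8 (WT), 13.7 and 11.3 (Mut18), 11.5 and 11.5 (Mut43). At -13843 bp from Zfp42 it was 9.12 and 11.1 (WT), 10.5 and 10.6 (Mut18), 10.7 and 10.8 (Mut43). At the Utf1 region the mutant libraries were above both WT libraries, at that of Zfp42 the groups overlapped, and neither passed the test (adjusted p = 0.432 and 0.801, limma). The other regions of Dppa4 were at Dppa2, 20012 and 26397 bp downstream, with 6.39 to 8.36 in the first of these, whereas its own promoter carried a peak of 3.48 in 1 library only. Fgf4 has a further annotated start inside the gene, within 1 kb of the intron region with its summit at 13856 bp. No peak of these 6 lists lay between the end of that region at 144861438 and 20 kb past the end of the gene.

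Log2 fold enrichment, centred on each library's median over the 48984 regions with a peak in all libraries, was compared between WT (n = 2) and the mutants (n = 4) with limma, and 0 of the 43 regions near the 10 genes passed an adjusted p under 0.05, where 0.996% of the 48984 did (0.341% higher and 0.655% lower). At an unadjusted p under 0.05 there were 4 of 43, where 14.7% of all regions passed in either direction. All 4 were higher in the mutants, and the share of all regions that passed and were higher is not given. These were the Nanog promoter, the Sall4 region at 670 bp, the Pou5f1 region at -1985 bp and the Utf1 region at 6869 bp. After centring, the groups did not overlap in 11 of 43 regions, 8 higher and 3 lower in the mutants, and in 24.3% of all regions. The median difference was 0.09 on the log2 scale near the 10 genes and 0.02 over all regions.

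**Figure D5:**
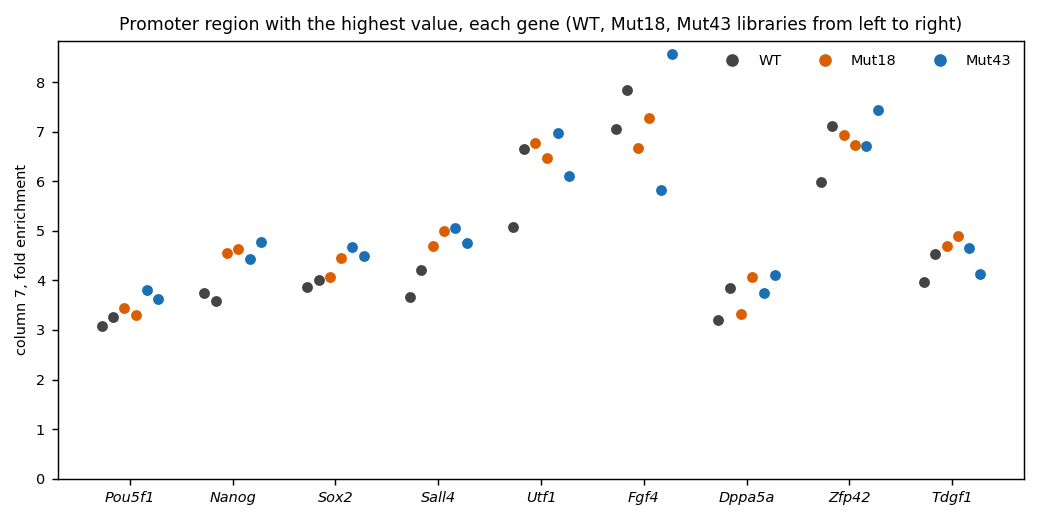
Fold enrichment (linear axis from 0) of the promoter region with the highest listed value for the 9 genes that have one in every library, with the 2 libraries each of WT, Mut18 and Mut43 from left to right. The mutant libraries lie above both WT libraries at Nanog, Sox2, Sall4 and Pou5f1, and the groups mix at Utf1, Fgf4, Dppa5a, Zfp42 and Tdgf1.

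At the promoter regions with the highest listed value, none of 9 genes passed the test. The mutant libraries were above both WT libraries at 4 of these 9, those of Nanog, Sall4, Sox2 and Pou5f1, and the groups overlapped at the other 5. Over all regions 24.3% did not overlap in either direction, and the share with higher mutants alone is not given. With quantile normalization there were 2 such promoters, and without the second Mut43 library 6. With fewer libraries the groups stay apart more easily, and no share of all regions is given for these settings. The other tested promoter regions differed by -0.08 at Sall4 (2466 bp), 0.04 at Sox2 (-1070 bp) and 0.10 at Pou5f1 (3518 bp) on the log2 scale. At Fgf4 (13856 bp), Tdgf1 (-24 bp) and Zfp42 (1092 bp) the differences were 0.18, -0.03 and -0.03. The Nanog promoter region printed above (chr6:122707158-122707595, with its summit -2 bp from the 5′ end) had a fold enrichment of 3.75 and 3.57 (WT), 4.55 and 4.64 (Mut18), 4.43 and 4.77 (Mut43). Every mutant library was above WT, with a log2 difference of 0.31 (SE 0.084, adjusted p = 0.0869, limma). The exact two-sided permutation p was 0.0667, the smallest that 15 splits of 6 libraries can give, so that no single region could pass 0.05 by that test. The Sall4 region that holds the octamer (chr2:168766768-168767367, intron) had 3.67 and 4.21 (WT), 4.70 and 5.00 (Mut18), 5.06 and 4.75 (Mut43), a log2 difference of 0.29 (adjusted p = 0.113, limma).

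The Pou5f1 region with the joint motif (chr17:35503906-35504330, intergenic) had 3.29 and 3.56 (WT), 3.78 and 3.85 (Mut18), 4.15 and 3.99 (Mut43), a log2 difference of 0.19 (adjusted p = 0.256, limma). Its promoter-side region at -1127 bp had 3.09 and 3.25 (WT), 3.43 and 3.301 (Mut18), 3.799 and 3.62 (Mut43). All 6 tested regions within 20 kb of Pou5f1 had a higher value in the mutants, by 0.10 to 0.23 on the log2 scale, none of them past the test. Over all regions in the fit the median difference was 0.02, and the share that was higher is not given. Of the 6, the region at 11017 bp lay at the promoters of Cchcr1 and Tcf19, and that at 20753 bp in an intron of Cchcr1. The mRNA of Pou5f1 was lower, and no link to these regions was tested. At Sox2 the region at -456 bp had 3.87 and 4.01 (WT), 4.08 and 4.45 (Mut18), 4.68 and 4.49 (Mut43) (log2 0.15, adjusted p = 0.444, limma).

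The Utf1 region with the joint motif (chr7:139945532-139945920, intergenic, downstream) had 3.89 and 3.94 (WT), 4.196 and 4.58 (Mut18), 4.51 and 4.60 (Mut43), with mutants above WT in each library (log2 0.18, adjusted p = 0.343, limma). At the Zfp42 promoter (chr8:43306851-43307427) the values were 5.99 and 7.12 (WT), 6.93 and 6.74 (Mut18), 6.72 and 7.44 (Mut43). These overlapped, with a log2 difference of 0.07 (95% confidence interval -0.14 to 0.29, adjusted p = 0.794, limma), beside the 1.65-fold higher count of its mRNA. The 5 regions of Zfp42 differed by -0.12 to 0.07 on the log2 scale.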

How the data were processed

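The mRNA-seq file deposited by the authors is 1 table of unnormalized counts by gene symbol, and the ATAC-seq files are MACS2 peak lists, 1 per library, whose column 7 is the deposited fold enrichment (a ratio) and whose column 9, the deposited -log10 q-value, served only for alternatives. Replicates were not pooled. The submitters' processing notes name STAR, DESeq2, Bowtie2 2.3.4.2, SAMtools, MACS2, deepTools 3.3.0 and mm10, and the counting program, its strand setting and the read numbers of the peak lists are not given in the sources used here. The 57 samples of other assays were not used here, and the count table had 0 columns of other samples.

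Counts were analysed with edgeR 4.0.16 in R 4.3.3 (filterByExpr at a minimum count of 10, TMM, quasi-likelihood F-test, Benjamini-Hochberg adjustment over 14061 genes), with a fit of 2 groups for WT against mutants and of 3 groups for the clones. Levels per length used the exon union of GENCODE M21. Peaks of chromosomes 1 to 19, X and Y were merged where they overlapped by at least 1 bp, and log2 column 7 was compared with limma 3.58.1 (trend) after median centring. A promoter region lay within 1 kb of an annotated start. The procedures were tested on simulated data. The 10 genes and all lists were chosen with earlier results of these data known. The text names the 10 genes, of each list the called genes with the 2 largest changes in each direction above a mean of 50 normalized counts, the 3 genes most like Pou5f1 and Nanog (1 of them is not reported here), promoter regions, those with the highest listed value and line-specific regions, and sequences of regions with a motif. Other regions with values were added after these had been seen. Alternatives were DESeq2 1.42.0, other scalings, filters, thresholds, windows and overlaps, a replicate term and each library left out in turn. Counting error is a part of the spread between replicate libraries, and intervals for shares of regions cover counting error only.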

Additional observations from a re-analysis of the deposited data

Results flagged for a closer look

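In 53 sets of 4 mutant libraries (the counts of the 10 genes and 43 regions), 3 had 1 library far from the others, where chance gives about 1 in 20. At the Dppa5a region -17870 bp from the 5′ end, the second Mut43 library had a fold enrichment of 6.85 and the others 5.89 to 5.95, so that the gap was 0.933 of the range. At the Fgf4 region 4153 bp from the 5′ end, the first Mut18 library had 7.46 and the others 8.33 to 8.43, a gap of 0.892 of the range. At the Utf1 region -12899 bp from the 5′ end, the first Mut18 library had 13.7 and the others 11.3 to 11.5, a gap of 0.921 of the range. None of these regions passed the test between WT and mutants, and no count of the 10 genes stood apart in this way.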

How the results depend on the processing

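Pou5f1, Nanog, Sox2 and Zfp42 kept their direction and call in every mRNA-seq alternative, against WT in both clones together and in each. At an adjusted p under 0.01, 5 of the 10 genes were called in WT against mutants (3 higher) and 5 in Mut43 against WT (3 higher). The share of all tested genes at this threshold is not given, so these counts have no background beside them. With 1 mutant library left out in turn, 6 to 8 of the 10 were called at an adjusted p under 0.05 in WT against mutants (4 to 6 higher, 2 lower). Over all genes these fits called 6224 to 6648 of 13963 to 14009 tested, against 6749 of 14061 in the main fit. Fits that left 1 library in a group give no count here. In the single clones the counts rose from 8 to 9 in Mut43 with RLE scaling, with TMM factors from genes outside chromosome 11 or without a filter. In Mut18 they rose from 6 to 7 with the same TMM factors. They fell to 7 in Mut43 with DESeq2 or with upper-quartile scaling, and to 5 in Mut18 with DESeq2. Shares of all genes are not given for the single clones in these settings. Dppa4 was called in Mut43 in 4 of 13 alternatives (adjusted p = 0.0205 to 0.343, edgeR or DESeq2) and Dppa5a in Mut18 in 2 of 13 (0.0261 to 0.517). Sall4, not called in any setting, changed sign in WT against mutants to 0.0163 with TMM factors from genes outside chromosome 11 and to 0.0017 without a filter, and ranged from -0.045 to 0.031 with libraries left out; in Mut43 against WT it ranged from -0.00100 to 0.102. The cause was not tested. Same-numbered mRNA-seq libraries did not deviate together (correlations of -0.054 to 0.003), and the numbers were taken to name libraries only. No such value is given for the ATAC-seq libraries. With a replicate block in the fit 7 of the 10 genes were called in WT against mutants, Tdgf1 being lost (adjusted p = 0.0538, edgeR). Of all 14061 tested genes 6604 were called in that fit. For ATAC-seq, a window of 50 kb gave 127 regions, of which 77 had a peak in every library and could be tested. Of these 77, 2 were called, where 0.996% of all 48984 regions in the fit were. Quantile normalization left 2 promoters without overlap between the groups in place of 4. The 2 WT libraries and peak lists without read numbers limit what can be detected.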
